A study of Rattus norvegicus with 16 samples.

Results

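The pentose phosphate pathway and the supply of NADPH were followed in rat kidney cells through 9 genes. H6pd and Pgls belong to the oxidative branch, and Rpia, Rpe, Tkt and Taldo1 belong to the non-oxidative branch. Prps1 and Prps2 start the use of ribose phosphate, and Me1 encodes the cytosolic malic enzyme. The members were chosen by gene name, with earlier results of these data known, and make up 9 of the 32623 genes in the table of counts. Shares of called members set beside those of all genes are therefore descriptive. RNA sequencing was performed on 16 libraries from NRK-52E and NRK-49F cells, 4 for each cell line and pH. Both lines derive from the kidney of the rat, NRK-52E from its epithelium, with proximal tubule-like features, and NRK-49F from its fibroblasts. Each well held both lines without direct contact, with NRK-52E cells on a porous insert above and NRK-49F cells on the floor below. After a period in medium without serum, this co-culture was kept at pH 7.4 (control) or at pH 6.0 (acidosis) for 48 h, to ask how extracellular acidosis acts on both cell types while they share their medium. Each cell type is represented by 1 established line, so features of the line and of the cell type cannot be told apart. All 4 groups were co-cultures, and cells kept in monoculture were not analysed here. The libraries held between 16201084 and 34784862 counted fragments. Expression is given as FPM, fragments scaled to a common library size by the TMM method over the 16 libraries. The labels do not say whether the 4 libraries of a group came from separate cultures, so p-values measure the spread between these libraries, which may be technical. The chi-square per degree of freedom between 2 libraries of a group was at least 6.12, above the value near 1 that counting alone gives, which does not show whether they are separate cultures.

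The labelled cell types were compared with lists of marker genes. In NRK-52E cells, the epithelial markers Epcam, Krt18 and Cldn4 were below 1 FPM at both pH values, while the mean of Krt8 was 430.4 FPM (n = 4) and that of Ocln, a tight junction gene, 41.2 FPM at pH 7.4. The proximal tubule markers Lrp2, Slc34a1 and Slc5a2 were below 1 FPM in these cells, with Slc34a1 at 0 counts in all their libraries, and Aqp1 was the most abundant gene of that list at 34.4 ± 7.64 FPM (mean ± SD, n = 4). NRK-52E cells also held 6221 FPM of the collagen gene Col3a1 at pH 7.4 and 2630.4 FPM at pH 6.0, against 458 and 53.9 FPM in NRK-49F cells. The fibroblast markers Col1a1 and Pdgfra were at 23.6 ± 3.84 and 0.286 ± 0.110 FPM in NRK-52E and at 6205 ± 409.7 and 392 ± 54.7 FPM in NRK-49F cells at pH 7.4. NRK-49F cells had no count of Cdh1 or Ocln at pH 7.4 but 848 ± 70.4 FPM of Krt8, and Thy1 was at 0 counts in all 16 libraries. Of the 8 fibroblast markers tested between the lines, 6 were higher in NRK-49F cells at each pH and Col3a1 was lower. Of all genes, 33.7% were higher and 28.0% lower in NRK-49F cells at pH 7.4, and 33.8% and 30.7% at pH 6.0. Of the epithelial markers, Ocln and Tjp1 were lower in NRK-49F cells at each pH, Cdh1 was lower and Krt8 higher at pH 7.4, and Krt8 was lower at pH 6.0. Of the proximal tubule markers, Ggt1 was higher in NRK-49F cells at each pH, Cubn at pH 7.4 and Anpep at pH 6.0, against the labels. Some markers of each cell type were below 1 FPM in the line of that label, among them Dcn and Thy1 in NRK-49F cells.

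The marker lists also moved with pH. Of all genes tested, 28.2% were called higher and 28.5% lower at pH 6.0 in NRK-52E cells, and 18.4% and 19.4% in NRK-49F cells. In NRK-52E cells, the 9 measured fibroblast markers summed to 6375 ± 112 FPM at pH 7.4 and 2692 ± 596 FPM at pH 6.0, almost all of it Col3a1, and the 8 epithelial markers to 847 ± 16.9 and 906 ± 94.8 FPM. The epithelial markers moved apart, with 4 of the 5 tested called lower (Cdh1, Ocln, Krt19 and Krt8; Ocln fell to a mean of 9.67 FPM) and Tjp1 called higher, from 371 to 579 FPM. In NRK-49F cells, the fibroblast markers summed to 9522 ± 242 and 9454 ± 648 FPM, although 4 of the 7 tested were called lower (Col3a1, Lum, Pdgfrb and S100a4, the last from 2252 to 628 FPM), because the mean of Col1a1, which was not called, went to 8288 FPM. Their epithelial markers summed to 979.9 ± 56.7 and 334 ± 17.7 FPM, most of it Krt8. The 7 proximal tubule markers summed to 66.7 ± 8.59 and 30.1 ± 4.86 FPM in NRK-52E and to 168 ± 23.1 and 468 ± 106 FPM in NRK-49F cells, where Ggt1 led the list. The 5 endothelial and leukocyte markers summed to 1.86 ± 0.594 and 2.43 ± 0.340 FPM in NRK-52E and to 81.6 ± 16.3 and 243 ± 20.2 FPM in NRK-49F cells, nearly all Cd68, with Kdr and Ptprc at 0 counts in all 16 libraries. What part these shifts have in the changes of the pathway genes was not tested, and in bulk RNA a change in the share of expressing cells and a change in RNA per cell cannot be told apart.

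The pentose phosphate pathway branches from glycolysis at glucose phosphate. Its oxidative branch reduces NADP to NADPH and yields ribulose phosphate, and its non-oxidative branch rearranges pentose phosphates into fructose phosphate and glyceraldehyde phosphate by reversible steps. NADPH drives the reduction of glutathione and thioredoxin and the synthesis of lipids, and the malic enzyme in the cytosol is another source of it, while ribose phosphate is the start of nucleotide synthesis.

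In NRK-52E cells, 5 of the 9 genes were higher at pH 6.0 than at pH 7.4. They were Tkt, Me1, Taldo1, Rpe and Prps1, with log2 fold changes of 1.91, 1.75, 1.33, 0.72 and 0.55. A gene was called when its false discovery rate (FDR) was under 0.01 in edgeR and in DESeq2, and 28.2% of the 13735 genes tested were called higher. No member was called lower in NRK-52E cells by edgeR or by DESeq2, against 28.5% of all genes, and 0 had an unadjusted p under 0.05 in that direction in edgeR and 1 in DESeq2, which was Rpia. The median log2 fold change was 0.55 over the members and 0.00 over all genes tested. Scaling by library totals alone moved the median of all genes to -0.21, and the values of Tkt, Me1, Taldo1 and Rpe were then 1.70, 1.55, 1.12 and 0.52, all still called. Prps1 was then at 0.34, which is 0.54 above the median of all genes, and was no longer called. Rpia was then called lower at -0.46, and Pgls was called lower without N8 with TMM (-0.44).

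In NRK-49F cells, 5 of the 9 genes were also higher at pH 6.0, with Prps2 in the place of Rpe. Tkt rose 5.92-fold, Taldo1 3.74-fold, Prps1 1.79-fold, Me1 1.71-fold and Prps2 1.36-fold. Of all 13339 genes tested in this line, 18.4% were called higher and 19.4% lower. No member was called lower by edgeR or DESeq2, and the number with an unadjusted p under 0.05 in that direction was 0 in edgeR and 0 in DESeq2. The median log2 fold change was 0.44 over the members and 0.00 over all genes. Tkt, Taldo1, Prps1 and Me1 were thus called in both lines, each line having its own control libraries. The lines were grown in shared wells, and the labels do not say which libraries came from the same well. The results of the lines may therefore not be independent.

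**Figure D1:**
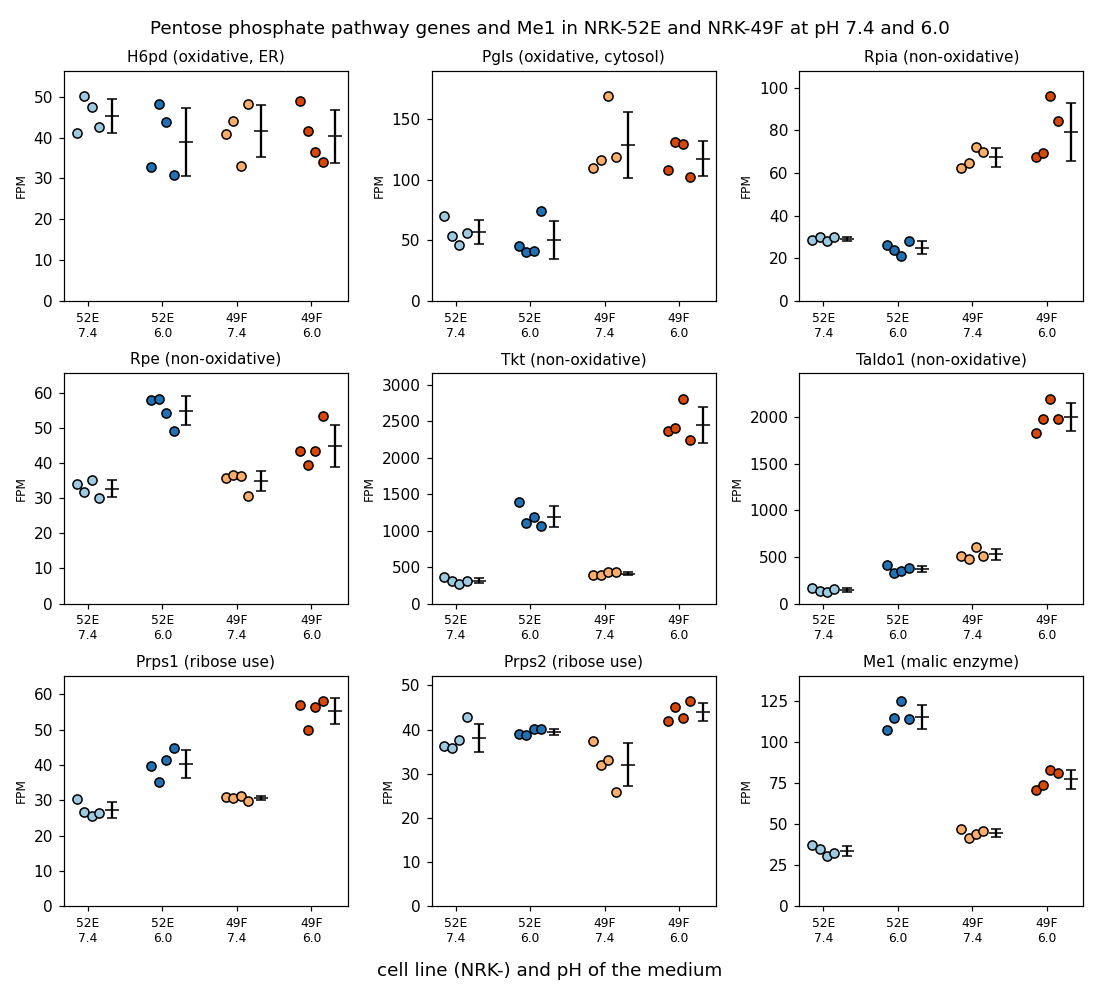
Expression in FPM (vertical axes, each from 0) of the 9 genes in the 4 libraries of each group, with group names on the horizontal axes, each point a library and the bar beside the points the mean ± SD (n = 4). Tkt, Taldo1, Prps1, Rpe and Me1 have every pH 6.0 library above every pH 7.4 library in both cell lines, while H6pd and Pgls overlap between the pH values. The share of all genes with such separation was not counted.

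The first oxidative step in the lumen of the endoplasmic reticulum is carried by H6pd, hexose-6-phosphate dehydrogenase, which is separate from the cytosolic pathway. Values per library follow the order N1, N2, N5 and N6 for NRK-52E at pH 7.4, N3, N4, N7 and N8 for NRK-52E at pH 6.0, N9, N10, N13 and N14 for NRK-49F at pH 7.4, and N11, N12, N15 and N16 for NRK-49F at pH 6.0. H6pd (ENSRNOG00000017523, chromosome 5 of rn6) was at 41.2, 50.1, 47.5 and 42.6 FPM in NRK-52E cells at pH 7.4 and at 32.9, 48.1, 43.9 and 30.7 FPM at pH 6.0. NRK-49F libraries held 41.0, 44.0, 33.1 and 48.1 FPM at pH 7.4 and 48.9, 41.7, 36.6 and 34.1 FPM at pH 6.0. All 4 groups overlapped, and the highest and the lowest library of the 16 were both from NRK-52E cells. The log2 fold change was -0.25 (standard error 0.14) in NRK-52E and -0.06 (0.14) in NRK-49F cells, with adjusted p-values of 0.15 and 0.745 in edgeR.

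Pgls encodes the lactonase of the oxidative branch in the cytosol. Pgls (ENSRNOG00000018326, chromosome 16) was measured at 69.9, 53.5, 46.3 and 56.4 FPM at pH 7.4 and 45.6, 40.5, 41.4 and 74.1 FPM at pH 6.0 in the NRK-52E line. In NRK-49F cells it was at 109.9, 117, 169 and 119 FPM at pH 7.4 and 108, 131, 129 and 102 FPM at pH 6.0. The pH groups overlapped in both lines, and library N8 at pH 6.0 and library N13 at pH 7.4 stood well above the other 3 of their groups. Neither change was called, with log2 fold changes of -0.18 (standard error 0.21) in NRK-52E and -0.15 (0.14) in NRK-49F cells. Without N8, Pgls was called lower in NRK-52E cells at a log2 fold change of -0.44, and without N13 its value in NRK-49F cells was 0.02.

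Ribulose phosphate is turned into ribose phosphate by the isomerase Rpia and into xylulose phosphate by the epimerase Rpe. Rpia (ENSRNOG00000005576, chromosome 4) was at 28.4, 29.9, 28.3 and 30.2 FPM at pH 7.4 and 26.1, 24.1, 21.4 and 28.4 FPM at pH 6.0 in the NRK-52E line. In NRK-49F cells Rpia was at 62.6, 64.7, 72.4 and 69.8 FPM at pH 7.4 and 67.4, 69.4, 96.0 and 84.6 FPM at pH 6.0. The pH groups overlapped in NRK-52E cells only because library N8 at pH 6.0 was just above N5 at pH 7.4, and in NRK-49F cells through N11 and N12. Neither change of Rpia was called, with log2 fold changes of -0.24 (standard error 0.12) and 0.22 (0.11), or -0.32 to -0.16 and 0.13 to 0.29 when single libraries were left out. With library totals alone as the scale, Rpia was called lower in NRK-52E cells at -0.46, which is -0.25 from the median of all genes.

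Rpe (ENSRNOG00000038085, chromosome 9) was at 34.0, 31.8, 35.3 and 30.0 FPM at pH 7.4 and 57.9, 58.3, 54.3 and 49.2 FPM at pH 6.0 in the NRK-52E line. NRK-49F libraries were at 35.8, 36.5, 36.4 and 30.6 FPM at pH 7.4 and 43.4, 39.4, 43.6 and 53.3 FPM at pH 6.0. The pH groups did not overlap in either line, with the highest values in NRK-52E cells at pH 6.0. Rpe rose in NRK-52E cells by a log2 fold change of 0.72 (standard error 0.10, edgeR adjusted p = 6.26e-05). In NRK-49F cells its log2 fold change was 0.35 (0.11), with an adjusted p of 0.0207 in edgeR and 0.00978 in DESeq2, so the call failed in edgeR. The difference between the lines was 0.36 (edgeR adjusted p = 0.055) and not called. The count ratio of Rpia to Rpe, of which only the change between groups is read because transcript lengths differ, was 0.897 ± 0.0938 at pH 7.4 and 0.459 ± 0.0819 at pH 6.0 in NRK-52E cells, without overlap, and 1.95 ± 0.246 and 1.78 ± 0.299 in NRK-49F cells, with overlap.

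Transketolase, encoded by Tkt, moves carbon units between sugar phosphates and joins the pathway to glycolysis. Tkt (ENSRNOG00000016064, chromosome 16) was at 363, 305, 275 and 306 FPM in NRK-52E libraries at pH 7.4 and at 1392, 1109.7, 1188 and 1068 FPM at pH 6.0. In NRK-49F cells the values were 386, 393, 429.7 and 430.5 FPM at pH 7.4 and 2361, 2409, 2806 and 2238 FPM at pH 6.0. The groups were far apart in both lines, and the lowest acid library of NRK-49F cells lay above the highest acid library of NRK-52E cells. The log2 fold change was 1.91 (standard error 0.12) in NRK-52E and 2.57 (0.11) in NRK-49F cells, with edgeR adjusted p-values of 3.71e-07 and 1.91e-08. Ranked from the largest rise, Tkt was number 565 of 13735 genes in NRK-52E and number 98 of 13339 in NRK-49F cells.

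Taldo1 encodes transaldolase, the partner of transketolase in the reversible rearrangements. Taldo1 (ENSRNOG00000018367, chromosome 1) was at 169.6, 136, 126 and 151 FPM at pH 7.4 and 415, 333, 351 and 386 FPM at pH 6.0 in the NRK-52E line. In NRK-49F cells Taldo1 was at 514, 478, 609 and 508 FPM at pH 7.4 and 1833, 1974, 2195 and 1984 FPM at pH 6.0. Every library at pH 6.0 was above every library at pH 7.4 of its line, and the control libraries of NRK-49F cells already exceeded the acid libraries of NRK-52E cells. Log2 fold changes were 1.33 (standard error 0.12) and 1.90 (0.11), with edgeR adjusted p-values of 2.83e-06 (NRK-52E) and 1.33e-07 (NRK-49F). Tkt rose more than Taldo1 in each line, and the count ratio of Tkt to Taldo1 moved from 2.15 ± 0.0894 to 3.21 ± 0.297 in NRK-52E and from 0.782 ± 0.0647 to 1.23 ± 0.0735 in NRK-49F cells (mean ± SD, n = 4). The pH groups of this ratio did not overlap in either line.

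The synthetases Prps1 and Prps2 turn ribose phosphate into phosphoribosyl pyrophosphate (PRPP), the sugar donor for nucleotides. They are close relatives, and fragments that map to several places may have been counted for more than one of them, so their separation is uncertain. Prps1 (ENSRNOG00000060262, chromosome X) was at 30.4, 26.6, 25.6 and 26.3 FPM at pH 7.4 and 39.7, 35.1, 41.5 and 44.8 FPM at pH 6.0 in the NRK-52E line. NRK-49F cells had 31.0, 30.7, 31.2 and 29.8 FPM at pH 7.4 and 56.9, 49.9, 56.5 and 58.1 FPM at pH 6.0. The control libraries of NRK-49F cells were nearly equal, and all acid libraries lay above the controls in both lines. The log2 fold change of Prps1 was 0.55 (standard error 0.11, edgeR adjusted p = 0.00133) in NRK-52E and 0.84 (0.09, 1.19e-05) in NRK-49F cells.

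Prps2 (ENSRNOG00000004160, chromosome X) was at 36.3, 35.8, 37.6 and 42.7 FPM at pH 7.4 and 39.0, 38.7, 40.2 and 40.0 FPM at pH 6.0 in the NRK-52E line. In NRK-49F cells it was at 37.4, 31.9, 33.2 and 25.7 FPM at pH 7.4 and 41.9, 45.1, 42.6 and 46.4 FPM at pH 6.0. The pH groups overlapped in NRK-52E cells and were apart in NRK-49F cells, where library N14 was the lowest. The log2 fold change was 0.03 (standard error 0.10) in NRK-52E and 0.44 (0.12) in NRK-49F cells, where Prps2 was called with an edgeR adjusted p of 0.00749. This call was lost without any one of N10, N11, N12, N14, N15 or N16, with values of 0.45 (N10), 0.47 (N11), 0.43 (N12), 0.34 (N14), 0.47 (N15) and 0.42 (N16) and edgeR adjusted p-values of 0.0118 to 0.022. The small value in NRK-52E cells turned negative, to -0.18, with library totals alone. The count ratio of Prps1 to Prps2 rose from 0.719 ± 0.0949 to 1.02 ± 0.0878 in NRK-52E cells without overlap, and it was 0.972 ± 0.138 and 1.26 ± 0.111 in NRK-49F cells, with overlap.

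Me1 encodes the malic enzyme of the cytosol, which makes NADPH while it turns malate into pyruvate. Me1 (ENSRNOG00000009715, chromosome 8) was at 37.3, 34.6, 30.6 and 32.1 FPM at pH 7.4 and 107, 114, 125 and 114 FPM at pH 6.0 in the NRK-52E line. In NRK-49F cells Me1 was at 46.9, 41.6, 44.1 and 45.7 FPM at pH 7.4 and 70.7, 73.5, 83.0 and 81.0 FPM at pH 6.0. The acid libraries lay above the controls in both lines, and those of NRK-52E cells lay above those of NRK-49F cells, although their controls lay below. The log2 fold change was 1.75 (standard error 0.09, edgeR adjusted p = 1.3e-07) in NRK-52E and 0.77 (0.09, 1.73e-05) in NRK-49F cells. For Tkt, Taldo1, Rpe, Prps1 and Me1 in either line, exact permutation of the libraries on the scale of log2(FPM + 1) gave p = 0.0286 on 2 sides, the smallest value that 70 arrangements of 4 against 4 libraries allow. Such separation was not counted over all genes tested, of which 56.8% in NRK-52E and 37.8% in NRK-49F cells were called in either direction.

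Another number stands in the column names of the count table, and what it means is not known. It is 21 or 22 in NRK-52E cells and 20 or 21 in NRK-49F cells, with 2 libraries for each number and pH. Within these numbers, the log2 fold change of Tkt was 1.87 and 1.94 in NRK-52E and 2.62 and 2.53 in NRK-49F cells. Taldo1 was at 1.25, 1.39, 1.94 and 1.88, and Me1 at 1.58, 1.90, 0.71 and 0.85 in the same order, all of them called. Prps1 was at 0.35 and 0.71 in NRK-52E cells, called in neither, and at 0.80 and 0.89 in NRK-49F cells, called in both. Rpe in NRK-52E cells was called within number 21 at 0.78 but not within number 22 at 0.64. Prps2 in NRK-49F cells was called within neither number, at 0.33 and 0.58. Tkt, Taldo1 and Me1 thus rose within each number, where 2 libraries per group remained.

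An interaction test compared the responses of both lines to pH in 1 edgeR model of all 16 libraries, with the effect in NRK-49F subtracted from that in NRK-52E cells. This model, also used for differences between the lines, treated all libraries as independent, although libraries of the lines may share wells. Tkt and Taldo1 rose more in NRK-49F cells, and Me1 rose more in NRK-52E cells. At an FDR below 0.01, 1 of the 9 genes was more positive in NRK-52E cells, against 19.4% of the 14679 genes tested, and 2 were more positive in NRK-49F cells, against 17.6%. The difference was 0.96 (standard error 0.12, edgeR adjusted p = 5.39e-06) for Me1, -0.67 (0.16, 0.00185) for Tkt and -0.59 (0.16, 0.00482) for Taldo1. The call of Taldo1 was lost without any one of N1, N4, N6, N7, N9, N10 or N15, with differences of -0.51 (N1), -0.53 (N4), -0.58 (N6), -0.56 (N7), -0.58 (N9), -0.55 (N10) and -0.55 (N15). Within number 21, the only one that both lines share, the differences were 0.74 for Me1, -0.66 for Tkt and -0.63 for Taldo1, and none was called by edgeR with 2 libraries per group. No member had called changes of opposite sign in the cell lines.

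For the other 6 genes, the difference between the pH effects was not called. It was -0.48 (standard error 0.16) for Rpia and -0.43 (0.15) for Prps2, with edgeR adjusted p-values of 0.0206 and 0.024. It was -0.30 for Prps1, -0.19 for H6pd and -0.05 for Pgls. Rpia was called by DESeq2 alone at -0.49 (DESeq2 adjusted p = 0.00877), and by edgeR without N3 at -0.61 and without N8 at -0.55, and Prps2 without N9 at -0.51. The median of all genes was -0.01 with all libraries and -0.12 without N3. With library totals alone, which moved the median of all genes to -0.25, Rpia, Prps1 and Prps2 were called at -0.72, -0.54 and -0.67, or -0.47, -0.30 and -0.42 relative to that median. The calls of Prps2 and Rpe in a single line are therefore no called difference between the lines by this test with TMM.

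Differences between the lines at the same pH gave the order of the levels. At pH 7.4, NRK-49F cells had higher expression of 5 of the 9 genes, against 33.7% of all genes, and lower expression of none, against 28.0%. By edgeR these were Taldo1 with a log2 difference of 1.86 (standard error 0.12), Rpia with 1.21 (0.12), Pgls with 1.18 (0.19), Me1 with 0.41 (0.09) and Tkt with 0.39 (0.11). In the lower direction, edgeR gave 1 member with an unadjusted p under 0.05, and DESeq2 called 1, which was Prps2 in both, at -0.25 in edgeR. The differences of Tkt and Me1 were 0.00 and 0.02 with library totals alone, which moved the median of all genes to -0.34, and neither was then called, while Prps2 was called lower at -0.64 and, with DESeq2 size factors, at -0.34. The call of Tkt was also lost with DESeq2 size factors, at 0.30, and without any one of N2, N3, N5, N6, N13 or N14, at 0.38 (N2), 0.26 (N3), 0.34 (N5), 0.38 (N6), 0.37 (N13) and 0.37 (N14), and without N3 Prps2 was called lower at -0.38. The omission of N3 also moved the median of all genes, from 0.05 to -0.08.

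At pH 6.0, 5 genes were higher in NRK-49F cells, against 33.8% of all genes, and Me1 alone was lower, against 30.7%. Taldo1 had a log2 difference of 2.44 (standard error 0.12), Rpia of 1.69 (0.12), Pgls of 1.24 (0.19), Tkt of 1.06 (0.11), Prps1 of 0.48 (0.10) and Me1 of -0.56 (0.09). The order of the lines for Me1 was therefore opposite at the 2 pH values with TMM, but not with library totals alone, where the difference at pH 7.4 was 0.02 and not called, and within number 21 neither difference of Me1 was called (0.32 at pH 7.4 and -0.42 at pH 6.0). Rpe was -0.27 (edgeR adjusted p = 0.0285), and it was called lower at -0.36 without N16 and at -0.42 with library totals alone, -0.35 with DESeq2 size factors and -0.35 by DESeq2 alone. The libraries and the pH comparisons behind these differences are the same, so they are no separate evidence on the pH effects.

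Over the 4 groups, Tkt rose in the order NRK-52E at pH 7.4, NRK-49F at pH 7.4, NRK-52E at pH 6.0 and NRK-49F at pH 6.0, with means of 312, 409.9, 1189.5 and 2454 FPM and no overlap between neighbours. Taldo1 had the order NRK-52E at pH 7.4, NRK-52E at pH 6.0, NRK-49F at pH 7.4 and NRK-49F at pH 6.0, with means of 146, 371, 527 and 1997 FPM and no overlap. Me1 went from 33.7 FPM in NRK-52E at pH 7.4 over 44.6 in NRK-49F at pH 7.4 and 77.1 in NRK-49F at pH 6.0 to 115 FPM in NRK-52E at pH 6.0, again without overlap. With library totals alone, the control groups of Tkt and of Me1 overlapped between the lines, while the order of Taldo1 held. Rpia and Pgls formed a low pair of groups in NRK-52E cells and a high pair in NRK-49F cells, with group means of 25.0 to 29.2 and 67.4 to 79.3 FPM for Rpia, and 50.4 to 56.5 and 118 to 128 FPM for Pgls. The neighbours within each pair overlapped. The control groups of Prps1, Prps2 and Rpe overlapped between the lines, as did the acid groups of Rpe, and the H6pd groups all overlapped. The acid groups of Prps2 did not overlap between the lines. With library totals alone, by contrast, the acid groups of Prps2 overlapped between the lines. The control groups of Prps1, Prps2, Rpe and H6pd and the acid groups of Rpe did not overlap between the lines on that scale. The pH groups of Rpia in NRK-52E cells did not overlap on that scale either.

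Further genes of the pathway were taken from a list of 12, of which 8 were tested in each line. In NRK-52E cells, 3 were called higher and 1 lower, against 28.2% and 28.5% of all genes. The median log2 fold change was 0.33, against 0.001 over all genes. The rises were led by Prpsap2, which encodes a protein associated with PRPP synthetase, at 0.89 (standard error 0.10), and the phosphoglucomutase gene Pgm2 at 0.81 (0.12). In NRK-49F cells, 2 were higher and 3 lower, against 18.4% and 19.4% of all genes. The median was 0.01, against -0.003 over all genes. Shpk, the kinase of the sugar sedoheptulose, rose by 2.39 (0.22) and Tigar, a phosphatase gene, by 0.58 (0.13), and the ribokinase gene Rbks and the aldolase gene Dera were lower at -0.57 (0.15) and -0.40 (0.08). Idnk, the gluconate kinase that feeds the oxidative branch, was lower in both lines, at -2.23 (0.27) in NRK-52E and -1.36 (0.12) in NRK-49F cells. Dera was higher in NRK-52E cells at 0.44 and lower in NRK-49F cells, and this difference was called by edgeR (0.83, adjusted p = 2.89e-05).

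Other genes of NADPH supply made up a list of 16, with 14 tested in each line. In NRK-52E cells, 4 were higher and 2 lower, against 28.2% and 28.5% of all genes, with a median log2 fold change of -0.10. Library totals alone gave 3 higher and 4 lower. Mthfd2, a mitochondrial folate enzyme, rose by 3.80 (standard error 0.16), pyruvate carboxylase Pc by 1.95 (0.14) and the cytosolic isocitrate dehydrogenase Idh1 by 1.37 (0.10). Me2, a mitochondrial malic enzyme, was lower at -1.63 (0.15), opposite to Me1. In NRK-49F cells, 5 were higher and 1 lower, against 18.4% and 19.4% of all genes, with a median of 0.19. Aldh1l2, a mitochondrial folate dehydrogenase, rose by 2.82 (0.36), from a low mean of 0.739 FPM to 5.35 FPM. Mthfd2 rose by 1.66 (0.13) and Mthfd2l by 0.73 (0.20), and Me2 was lower at -0.95 (0.10). Me1 and Me2 thus changed in opposite directions in both lines. Me3, another mitochondrial malic enzyme gene, was not called in NRK-52E cells (-1.29, with means of 0.626 and 0.262 FPM). It was not tested in NRK-49F cells. Idh1 was not called in NRK-49F cells (-0.25), and its pH effects differed between the lines by 1.61 (edgeR adjusted p = 5.88e-08).

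**Figure D2:**
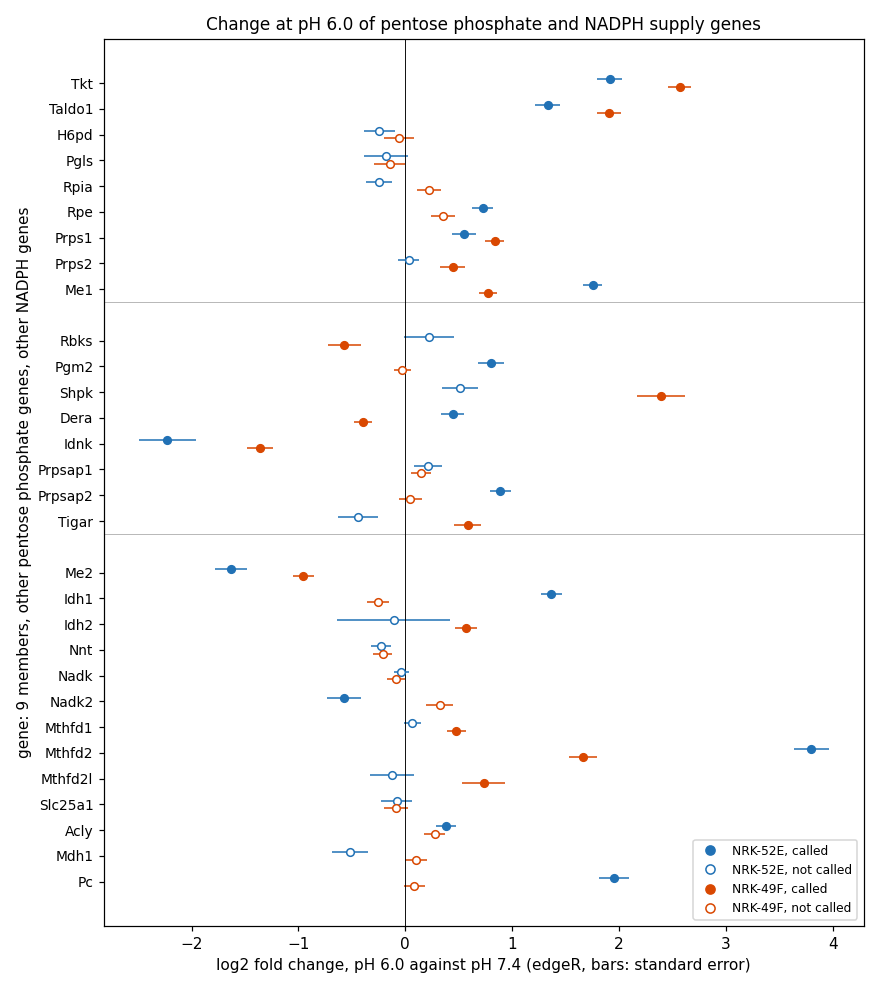
Log2 fold change at pH 6.0 against pH 7.4 (horizontal axis) of the 9 members (top), the further pathway genes (middle) and other NADPH supply genes tested in both lines (bottom), with bars of 1 standard error on each side and filled points for genes called by both tools. Tkt, Taldo1, Prps1, Me1 and Mthfd2 are filled and right of 0 in both lines, while Idnk and Me2 are filled and left of 0, and with library totals alone Prps1 was not called in NRK-52E cells.

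Of 15 genes whose enzymes use NADPH, 10 were higher and 3 lower in NRK-52E cells, against 28.2% and 28.5% of all genes. In NRK-49F cells 4 were higher and 1 lower, against 18.4% and 19.4%, and the medians were 1.06 and 0.35. Thioredoxin reductase Txnrd1 rose by 2.40 (standard error 0.17) in NRK-52E and 1.59 (0.09) in NRK-49F cells, and the quinone reductase Nqo1 went from a mean of 149 FPM to 601 in the first line and from 1425 FPM to 4067 in the second. The oxidase gene Nox4 was lower, at -2.89 (0.49) and -3.48 (0.39), but its levels were low. Its means at pH 7.4 and 6.0 were 1.35 and 0.175 FPM in NRK-52E and 3.54 and 0.292 FPM in NRK-49F cells. Txnrd1 and Nqo1 were thus called in the same direction as Tkt, Taldo1 and Me1 in both lines.

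Genes of the upper steps of glycolysis, which share sugar phosphates with the pathway, were also listed. In NRK-52E cells, 3 of the 15 tested were higher and 6 lower, against 28.2% and 28.5% of all genes. In NRK-49F cells 5 of 14 were higher and 1 lower, against 18.4% and 19.4%, and the medians were -0.28 and 0.22. Hexokinase Hk2 rose by 2.37 (standard error 0.18) in NRK-52E and 1.54 (0.13) in NRK-49F cells. The phosphofructokinase genes Pfkl and Pfkm were lower in NRK-52E cells at -1.75 (0.17) and -1.55 (0.15), and the glucose transporter Slc2a1 rose in NRK-49F cells by 1.31 (0.12).

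A list of nucleotide synthesis and salvage genes, of which only some use PRPP, had 19 genes tested in each line. In NRK-52E cells 9 were higher and 5 lower, against 28.2% and 28.5% of all genes. In NRK-49F cells 12 were higher and 1 lower, against 18.4% and 19.4%. The medians were 0.32 and 0.57. In NRK-52E cells the rises were led by the salvage enzyme Hprt1 at 1.50 (standard error 0.11), Gmps at 1.45 (0.08) and the salvage enzyme Aprt at 1.29 (0.12), and the purine synthesis gene Pfas was lower at -0.89 (0.10). In NRK-49F cells, Ppat, which starts purine synthesis from PRPP, rose by 1.31 (0.10) and Cad, which starts pyrimidine synthesis, by 1.36 (0.15). Dhodh, a later pyrimidine step, was lower in both lines, at -2.29 (0.19) and -0.98 (0.16). The pH effect on Ppat differed between the lines by -1.11 (edgeR adjusted p = 7.85e-07).

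Of 6 genes of transcriptional regulators known to act on the pathway, 2 were higher and 1 lower in NRK-52E cells. This compares with 28.2% and 28.5% of all genes. In NRK-49F cells 3 were higher and 1 lower, against 18.4% and 19.4%. Myc was lower in NRK-52E cells at -0.60 (standard error 0.15) and higher in NRK-49F cells at 1.93 (0.16). Nfe2l2 had called changes of the reverse signs, and its pH effects differed by 1.27 (edgeR adjusted p = 1.75e-06). Whether any regulator acts on these genes was not tested.

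For the members called in both lines, the genes with the most similar pattern were found by the root mean square difference of log2(FPM + 1) over the 16 libraries, after each gene's mean was subtracted, among 9754 genes with a mean of at least 10 FPM. For Tkt these were Phospho1 (0.29), Riok3 (0.32) and Acyp1 (0.33), with the difference in parentheses. For Taldo1 they were Pgm1 (0.35), Vegfa (0.36) and Ier5 (0.37). Prps1 was nearest to Aaas (0.12), Nup107 (0.13) and Fam216a (0.13), and Me1 to Rrn3 (0.14), Hbs1l (0.15) and Gpr107 (0.15). No other member was among these genes. Tkt differed from Taldo1 by 0.78 and from Me1 by 0.77, against medians over the compared genes of 1.26 for Tkt, 1.39 for Taldo1 and 0.80 for Me1.

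Because Tkt, Taldo1 and Me1 were called higher in both lines under every alternative run, the 250 bases upstream of their listed starts are shown, from RefSeq on the build GRCr8, which differs from the rn6 build of the counts. Of the 9 members, 8 were matched by symbol, and Pgls was not. Capitals mark the core of the antioxidant response element, TGACNNNGC, searched on both strands. The Tkt window is chr16:5729982-5730231 on the plus strand and lies inside the span that RefSeq gives for Tkt, the Taldo1 window is chr1:205922946-205923195 on the plus strand and the Me1 window is chr8:96540245-96540494 on the minus strand, the last 2 directly upstream of the gene.
Tkt: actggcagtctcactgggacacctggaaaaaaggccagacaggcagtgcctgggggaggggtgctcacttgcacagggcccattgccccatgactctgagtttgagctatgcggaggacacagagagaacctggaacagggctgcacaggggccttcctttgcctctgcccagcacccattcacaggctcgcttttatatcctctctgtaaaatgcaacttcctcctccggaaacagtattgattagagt
Taldo1: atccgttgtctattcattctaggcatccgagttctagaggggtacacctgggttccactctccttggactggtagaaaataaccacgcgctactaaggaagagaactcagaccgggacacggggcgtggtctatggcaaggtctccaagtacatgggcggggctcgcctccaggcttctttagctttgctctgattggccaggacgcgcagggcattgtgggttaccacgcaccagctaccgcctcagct
Me1: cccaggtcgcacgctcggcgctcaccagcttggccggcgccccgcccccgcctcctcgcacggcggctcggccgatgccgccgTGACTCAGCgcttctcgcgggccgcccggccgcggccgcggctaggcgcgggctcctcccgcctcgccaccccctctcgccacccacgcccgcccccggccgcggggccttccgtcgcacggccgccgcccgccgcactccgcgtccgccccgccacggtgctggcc

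The core was found in 1 of the 8 windows, that of Me1, where TGACTCAGC spans positions -167 to -159 from the start on the strand of the gene. It was in 10.1% of all 33469 windows of this length. This match overlaps TGACTCA, the site of AP-1 factors, which was in 4.05% of all windows and in no other member's. The GC box GGGCGG was found in 4 member windows (Taldo1, Me1, Rpe and Prps1) and 30.5% of all, and CCAAT in 4 (Taldo1, Rpe, Prps2 and Prps1) and 34% of all. The E-box CACGTG was in none of the 8 and in 5.59% of all windows. The Me1 window had 83.2% G and C, against 54.8% for Tkt, 56.0% for Taldo1 and a median of 51.2% over all windows. A match describes letters in these windows, and the windows without one say nothing of sites elsewhere in the genes.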

How the data were processed

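RNA was measured by sequencing 16 libraries of paired 150-base reads from co-cultured NRK-52E and NRK-49F cells, 4 per cell line and pH. The labels write pH 7 and 6, and the protocol gives 7.4 and 6.0, which are used here. The deposited values are raw counts of fragments per gene. The methods name tophat2 for alignment, while the submitters' processing notes name HISAT2 2.1.0 and featureCounts on rn6, with fragments that map to several places counted. Samples were grouped by the labels. Library totals of 16201084 to 34784862 fragments set the depth.

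The counts were tested in R 4.3.3 with edgeR 4.0.16 (TMM, filterByExpr, quasi-likelihood test) and DESeq2 1.42.0 (Wald test) over all genes. A pH effect in a line was called at an FDR below 0.01 in both tools, on the 8 libraries of that line. The interaction and the differences between lines were called by edgeR alone on group means of all 16 libraries. Standard errors were taken as the absolute log2 fold change over the square root of the F statistic. Levels are FPM, with exact permutation tests on log2(FPM + 1). The procedure was checked on simulated data.

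Alternatives were an FDR below 0.05, each tool alone, 1 edgeR model of all libraries, DESeq2 size factors, library totals alone, no filter, a filter of 1 CPM in 4 libraries, the second number in the column names as a covariate or its levels apart, and the omission of single libraries. The members and the gene lists were chosen with earlier results of these data known. Tests and alternatives were fixed before the counts were examined here, as were the lists apart from the omission named below. All members are named, and of each other list at most the 3 largest called rises and falls per line. Count ratios, motifs other than the antioxidant response element and comparisons of listed genes between lines were chosen after values were seen. The meaning of the second number is unknown. Pgd, Gapdh, Mlxipl, Col1a2 and Pecam1 were on the lists and were not analysed here, and 2 further listed genes were left out of the lists after their values were seen.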

Additional observations from a re-analysis of the deposited data

Results flagged for a closer look

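A single library lay far from the other 3 of its group in 3 of the 36 combinations of a member and a group, where chance gives about 1.8. Pgls in NRK-52E cells at pH 6.0 was 74.1 FPM in library N8, above the next value of 45.6 FPM. Pgls in NRK-49F cells at pH 7.4 was 168.8 FPM in library N13, above the next value of 118.6 FPM. Rpe in NRK-49F cells at pH 7.4 was 30.6 FPM in library N14, below the next value of 35.8 FPM.

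The pH effect differed between the cell lines for 3 members by the interaction test. The effect in NRK-52E minus that in NRK-49F cells was -0.67 on the log2 scale for Tkt, -0.59 for Taldo1 and 0.96 for Me1, with edgeR adjusted p-values of 0.00185, 0.00482 and 5.39e-06. In each line every library at pH 6.0 was above every library at pH 7.4 for these 3 genes, a separation not counted over all genes.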

How the results depend on the processing

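Tkt, Taldo1 and Me1 were called higher at pH 6.0 in both lines under every alternative run. Over all alternatives, 906 log2 differences of the members kept their direction and their side of the threshold, 27 changed sign, 34 lost the call and 23 gained it. Where a value moved, the cause was not tested, except that fewer libraries give a weaker test.

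At an FDR below 0.05, 5 members had an interaction (4 more positive in NRK-49F), as did 7424 of all 14679 genes (50.9% of them more positive in NRK-52E). Between the lines, 1 member was lower in NRK-49F cells at pH 7.4 and 2 at pH 6.0. Of all genes, 10462 and 10699 were then called, 53.7% and 51.6% of them higher in NRK-49F. DESeq2 alone and DESeq2 size factors each gave 1 lower member at pH 7.4 and 2 at pH 6.0. With DESeq2 alone, 9907 and 10102 of all genes were called, 49.04% and 48.32% of them higher in NRK-49F. With DESeq2 size factors, 9090 and 9545 of all genes were called, 49.47% and 48.63% of them higher in NRK-49F. Under these settings Rpe between the lines at pH 7.4 was -0.0051 and -0.0023, and H6pd at pH 6.0 was -0.010 and -0.012. DESeq2 alone gained the Rpia interaction (-0.49), and its size factors lost Tkt at pH 7.4 (0.30). Library totals alone lowered the share of rises among called genes in NRK-52E cells from 49.7% to 37.6%, with a shift of the median to -0.21. They gave 1 lower member in NRK-52E cells (Rpia), a sign change of Prps2 to -0.18 and 6 interactions (5 more positive in NRK-49F). Of all genes 5425 had an interaction, 33.7% of them more positive in NRK-52E, with a median of -0.25. At pH 7.4, 3 members were higher and 1 lower in NRK-49F, with Rpe at -0.30 and Prps1 at -0.22. Of all genes 9376 were called there, 34.1% of them higher, with a median of -0.34. At pH 6.0, 2 members were lower, with H6pd at -0.085. Of all genes 9520 were called at pH 6.0, 45.4% of them higher, with a median of -0.13.

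Within number 22, 3 members were called in NRK-52E cells, all 3 higher, with Pgls at 0.16 and Prps2 at -0.022. Of all genes 2819 were called, 50.8% of them higher, in place of 7800. Within number 20, H6pd was 0.10 and Pgls 0.077 in NRK-49F cells. Within number 21, edgeR called 0 interactions (0 more positive in NRK-52E and 0 in NRK-49F), with H6pd at 0.016, while 2548 of all 14890 genes were called. It called 3 members between the lines at pH 7.4, all 3 higher in NRK-49F, and 0 lower at pH 6.0, with H6pd at -0.18. Of all 14890 genes, 6436 and 7653 were called, 54.4% and 54.0% of them higher in NRK-49F. These fits had 2 libraries per group.

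Leaving out each library in turn gave ranges of -0.0026 to 0.066 for Prps2 and 0 to 1 lower members in NRK-52E cells, and of -0.22 to 0.023 for Pgls and -0.17 to 0.020 for H6pd in NRK-49F cells. Interactions more positive in NRK-49F numbered 1 to 3, and that of Pgls was -0.30 to 0.059. Between the lines, 0 to 1 member was lower at pH 7.4 and 1 to 2 at pH 6.0, with Rpe at -0.041 to 0.15 and H6pd at -0.037 to 0.18. Depth limits the genes near the filter, and every member passed it in both lines.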
